A study of Homo sapiens and Mus musculus with 20 samples.

Results

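The centromere and kinetochore genes are 42 genes, chosen by symbol for their place in the machinery that joins a chromosome to the spindle, out of 17554 genes listed for the lung fibroblast line IMR90. The rule is a list of symbols and uses no measured value, but the list was drawn up with earlier results of these data known. They fall into 7 roles: 4 genes for the centromeric histone and its loading, 12 of the constitutive centromere-associated network, 10 of the KNL1, MIS12 and NDC80 complexes, 3 of the SKA complex, 6 of the corona and the RZZ complex, 5 of the spindle checkpoint, and 2 shugoshins. The list of the A485 comparison held 41 of them, that of the MS-275 comparison 40 and that of the pyruvate comparison 30. Those 30 were in all 3 lists, and SKA1, a subunit of the SKA complex, was in none.

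A chromosome carries a centromere where the histone H3 variant CENPA replaces the usual histone, and a set of bound proteins, the constitutive centromere-associated network, stays on it through the cell cycle. At mitosis the KNL1, MIS12 and NDC80 complexes assemble on that base and grip microtubules, the SKA complex helps hold them, and the corona with its RZZ complex catches microtubules sideways and recruits the motor dynein. The spindle checkpoint delays anaphase until kinetochores are attached, and the shugoshins protect the cohesin that holds sister chromatids together at the centromere. Many of these genes are transcribed mainly in dividing cells, in late S, G2 and M phase, and cells that leave the cycle in senescence lower them.

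Expression was measured by bulk RNA sequencing of wild-type IMR90 cells, human embryonic lung fibroblasts by the study's account, in 6 groups of 2 libraries. Control2, Control3 and Control6 carry the treatment label None and were compared, in that order, with A485, which inhibits the acetyltransferase p300, with MS-275, which inhibits class I histone deacetylases, and with pyruvate. The study set these treatments to ask how enzymes that write or remove histone lactylation, and the supply of its metabolic source, bear on senescence, and it describes giving pyruvate to senescent cells. The labels give no dose, time, vehicle or passage, and do not say that replicates were separate cultures, so p-values here measure only the spread between 2 libraries, which may be technical. The libraries held 24179065 to 46971227 reads in listed genes. Replicates differed beyond sampling noise in every group, with a chi-square per gene of 4.54 to 456. All 7 fibroblast markers examined (COL1A1, COL1A2, COL3A1, PDGFRB, DCN, THY1 and VIM) were listed in each comparison, with summed values of 427114 to 1500961 per library. In the A485 comparison that sum lay at 1348062 to 1500961 in the controls and 427114 to 500272 after A485, and its part in the results was not tested. Of 5 epithelial markers only EPCAM was listed, at 47.7 to 64.2 in Control2 and 177 to 208 after A485 and at no more than 17.8 in the MS-275 comparison. Of 5 endothelial markers PECAM1 and CDH5 were in no list, and the summed value of the others (VWF, TEK and, save for pyruvate, KDR) went from 508 to 1289 in Control2 to 127 to 189 after A485, from 782 to 1391 in Control3 to 588 to 678 after MS-275, and from 358 to 481 in Control6 to 1448 to 1469 with pyruvate. Of 5 immune markers only LYZ was listed, in the A485 comparison, at no more than 21.4.

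Values are normalized read counts per gene, and a log2 fold change is the difference of group means of log2(value + 1), treated minus control, on which low counts give too small a change. A gene was called when its adjusted p from limma, with Benjamini-Hochberg adjustment over all genes tested, was under 0.05 and its log2 fold change passed 1 in size. In bulk RNA, fewer dividing cells and less of a transcript per cell cannot be told apart.

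**Figure D1:**
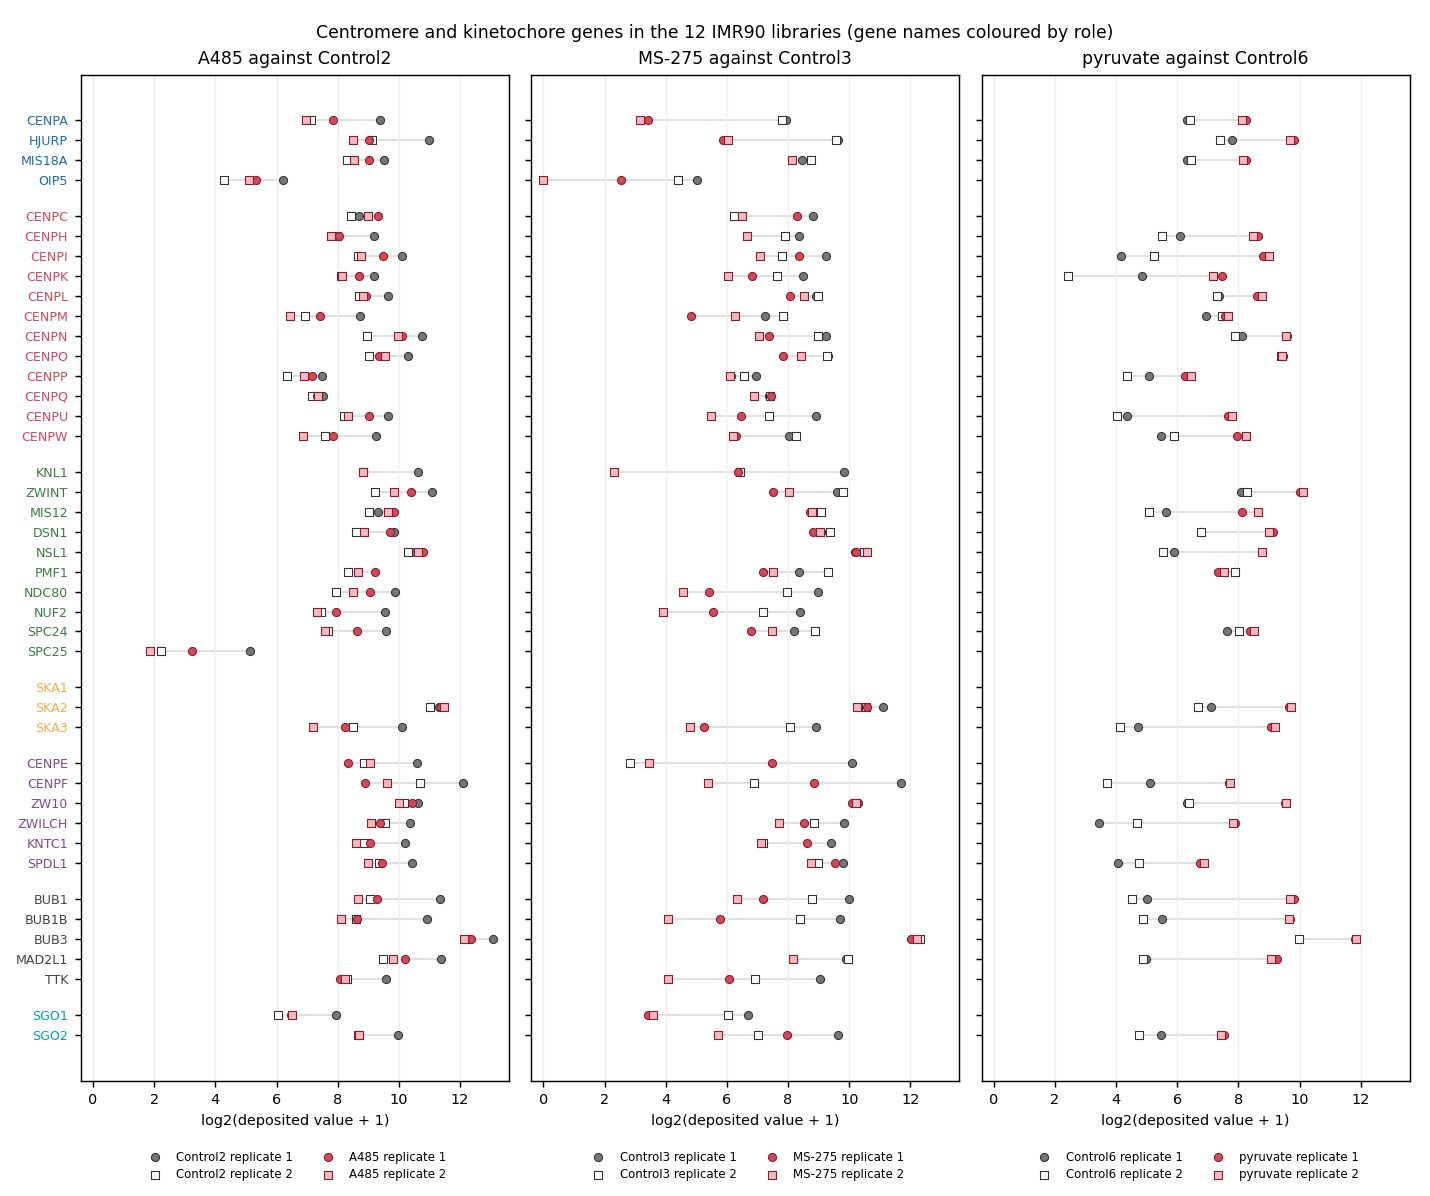
Each row is 1 member, grouped by role and coloured by it, and the x axis is log2(normalized read count + 1). Grey and white symbols are the 2 control libraries and red and pink symbols the 2 treated libraries of each comparison. After MS-275 the treated symbols lie left of both controls in 29 of 40 members, against 19.3% of all genes. After pyruvate they lie right of both controls in 28 of 30, against 45.2% of all genes. Some of these 30 were listed only through the pyruvate libraries. In the A485 panel Control2 replicate 1 lies furthest right in 36 of 41, against 23.6% of all genes.

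MS-275 was compared with Control3 to ask how the members respond when class I deacetylases are inhibited. The log2 fold change was negative in 39 of 40 members tested, with a median of -1.47 against -0.01 over all 15883 genes. CENPA, HJURP, BUB1B, SKA3, NDC80, KNL1, NUF2, TTK and SGO1 were between 7.88-fold and 26.6-fold lower by the means of normalized counts, while BUB3, ZW10, CENPC and NSL1 stayed within 1.30-fold of their control mean. No member was called in either direction, and neither was any of the 15883 genes (0.0% called), by limma with no covariate, the one tool run here. At an unadjusted p under 0.05, 1730 genes differed, and 21 of the 40 members were lower against 4.69% of all genes. Both MS-275 libraries lay below both controls in 29 of 40 members, against 19.3% of all genes. With the replicate number as a block in limma, 25 of 40 members were called lower, against 6.0% of all genes. No label says that the numbers pair the libraries.

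The genes of the centromeric histone and its loading had the lowest median of any role, a log2 fold change of -3.54. CENPA had normalized counts of 246 and 224 in the Control3 libraries and 9.68 and 7.97 after MS-275. The groups lay far apart and the replicates of each close together, a 26.6-fold lower mean and a log2 fold change of -4.59 (SE 0.43, unadjusted p = 1.61e-04, adjusted p = 0.142 by limma). HJURP, the chaperone that delivers CENPA to the centromere, had 788 and 755 in the controls and 58.1 and 64.8 after MS-275. It too was low in both treated libraries, 12.6-fold by the means, with a log2 fold change of -3.63 (SE 0.34, unadjusted p = 1.58e-04, adjusted p = 0.142). Of the 2 genes of the Mis18 complex, which licenses the site for new CENPA, OIP5 differed by -3.45 from control counts of only 31.7 and 20.2, and MIS18A by -0.48. Part of the CENPA exons overlap SLC35F6 on the same strand, and the counting rule for shared reads is not stated.

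The promoters of members with large and small differences after MS-275 are shown because genes of late cell cycle phases often share a CHR element (TTTGAA) near the start site and CCAAT boxes further upstream, which bind the cell-cycle repressor and activator complexes. Each run is the RefSeq sequence of build GRCh38.p14 from 250 bases before to 50 bases after the transcription start, on the gene's own strand. Capitals mark TTTGAA and CCAAT on either strand.
CENPA (chr2:26785806-26786105, plus strand): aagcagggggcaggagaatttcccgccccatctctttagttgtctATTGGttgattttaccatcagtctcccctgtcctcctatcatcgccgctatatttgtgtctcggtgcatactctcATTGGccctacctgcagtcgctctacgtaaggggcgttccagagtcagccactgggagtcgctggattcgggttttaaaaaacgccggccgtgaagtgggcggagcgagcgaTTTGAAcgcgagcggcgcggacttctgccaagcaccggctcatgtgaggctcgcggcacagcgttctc
BUB1B (chr15:40160819-40161118, plus strand): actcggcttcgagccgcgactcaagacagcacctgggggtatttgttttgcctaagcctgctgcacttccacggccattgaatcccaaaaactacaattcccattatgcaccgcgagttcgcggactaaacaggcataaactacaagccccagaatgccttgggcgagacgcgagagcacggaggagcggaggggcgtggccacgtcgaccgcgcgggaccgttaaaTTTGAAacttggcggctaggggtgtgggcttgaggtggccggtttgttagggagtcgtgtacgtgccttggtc
HJURP (chr2:233854486-233854785, minus strand): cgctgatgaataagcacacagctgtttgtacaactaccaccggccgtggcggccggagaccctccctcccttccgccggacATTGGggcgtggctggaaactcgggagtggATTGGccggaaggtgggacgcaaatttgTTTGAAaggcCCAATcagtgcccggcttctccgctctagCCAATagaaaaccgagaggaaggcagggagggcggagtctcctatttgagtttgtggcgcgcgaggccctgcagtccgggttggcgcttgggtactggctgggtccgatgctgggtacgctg
NUF2 (chr1:163321704-163322003, plus strand): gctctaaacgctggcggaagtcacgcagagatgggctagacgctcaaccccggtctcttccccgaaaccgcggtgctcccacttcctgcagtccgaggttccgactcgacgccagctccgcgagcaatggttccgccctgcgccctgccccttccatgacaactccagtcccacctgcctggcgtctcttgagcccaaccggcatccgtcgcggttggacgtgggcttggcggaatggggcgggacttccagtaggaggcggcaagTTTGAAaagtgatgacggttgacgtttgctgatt
ZW10 (chr11:113773643-113773942, minus strand): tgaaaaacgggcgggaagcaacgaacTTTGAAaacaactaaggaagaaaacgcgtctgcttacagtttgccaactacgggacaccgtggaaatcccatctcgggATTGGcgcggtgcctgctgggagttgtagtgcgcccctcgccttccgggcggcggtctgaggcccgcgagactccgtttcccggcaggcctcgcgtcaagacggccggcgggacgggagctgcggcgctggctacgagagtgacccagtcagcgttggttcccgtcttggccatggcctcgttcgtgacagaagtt
NSL1 (chr1:212791728-212792027, minus strand): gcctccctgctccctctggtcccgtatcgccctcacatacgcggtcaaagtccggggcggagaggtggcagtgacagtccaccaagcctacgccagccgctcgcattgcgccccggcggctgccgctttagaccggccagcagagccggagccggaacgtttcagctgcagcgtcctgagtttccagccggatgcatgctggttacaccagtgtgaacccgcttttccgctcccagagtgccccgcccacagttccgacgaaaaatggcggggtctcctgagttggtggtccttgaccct
CENPA and BUB1B hold TTTGAA with its first base at -18 and -23 from the start, NUF2 at 16, HJURP at -111 and ZW10 at -224. CENPA, HJURP and ZW10 also hold CCAAT, with 2, 4 and 1 copies, and NSL1 holds neither. In none of them does a TTTGAA overlap a CCAAT. HJURP, NUF2 and NSL1 were picked for display after their values were seen, and KNL1 and BUB3 have no entry in the promoter table used.

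Over the 34 members with a promoter entry, 16 (47.1%) held TTTGAA on either strand, against 15.4% of all 27305 promoters of that length. Within 50 bases of the start, a window set after values were seen, it was in 13 members (38.2%) against 4.67% of all promoters. CCAAT, on either strand, was in 23 members (67.6%) against 35.7%. Of the 2 E2F motifs searched on both strands, TTTCCCGC was in 2 members (5.88%) against 1.66%, and TTTGGCGC in 1 (2.94%) against 0.659%. Of the 24 members lower after MS-275 by a log2 difference of more than 1 in both replicate numbers, 20 had an entry, 10 with TTTGAA and 16 with CCAAT. Of the other 16 tested, 12 had an entry, 4 with TTTGAA and 6 with CCAAT. A match of letters is a description and not a binding site, and ZW10, with a log2 fold change of -0.10, holds both.

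In the constitutive centromere-associated network the median log2 fold change after MS-275 was -1.32, and all 12 members had negative values, from -2.17 in CENPU to -0.12 in CENPC. CENPM, CENPN, CENPW, CENPK and CENPH followed CENPU at -2.0, -1.90, -1.89, -1.63 and -1.48. CENPO stood at -1.16, CENPI at -0.82, CENPL at -0.67, CENPP at -0.63 and CENPQ at -0.24. CENPC, which binds the CENPA nucleosome and carries the MIS12 complex, had 449.7 and 73.8 in the controls and 314 and 89.7 after MS-275. Its replicates differed far more than its groups, and replicate 2 was the low library on both sides.

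Among the microtubule-binding complexes, NDC80, NUF2 and KNL1 had larger negative values than the MIS12 complex. NDC80, the subunit that contacts the microtubule, had 506 and 249 in Control3 and 41.6 and 22.9 after MS-275, a log2 fold change of -3.48 (SE 0.56, adjusted p = 0.187). NUF2, its partner in the complex, had 338 and 145 against 45.5 and 14, a log2 fold change of -3.07 (SE 0.76, adjusted p = 0.290). Both genes were low in both treated libraries without overlap. KNL1, the scaffold on which BUB1 and BUB3 dock, had 908 and 84.9 against 81.3 and 3.99, with treated replicate 1 just below control replicate 2. Its log2 fold change of -3.79 had an SE of 1.75, the gap between replicates being wide in both groups. ZWINT, the partner of KNL1, stood at -1.91 and SPC24 at -1.41. In the MIS12 complex, which joins these to the centromere, PMF1 stood at -1.47, DSN1 at -0.28, MIS12 at -0.26 and NSL1 at 0.07. MIS12 had 493 and 535 in the controls and 418 and 437 after MS-275, and NSL1, the one member above 0, had 1159 and 1431 and 1193 and 1539. NSL1 overlapped between groups, and PMF1 shares exons with the readthrough gene PMF1-BGLAP.

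The spindle checkpoint had a median log2 fold change of -2.64 after MS-275. BUB1B (BubR1), which holds back the anaphase promoting complex, had 820.1 and 332 in the controls and 53.3 and 15.9 after MS-275, a log2 fold change of -4.11 (SE 0.77, adjusted p = 0.224). The kinase BUB1 had 1020.2 and 443 against 144 and 79.7 (-2.64, SE 0.58). TTK (MPS1), the kinase that starts checkpoint signalling, had 531 and 121 against 66.8 and 15.9 (-2.91, SE 1.01). In these 3 genes replicate 2 was lower than replicate 1 in both groups, and the groups did not overlap. MAD2L1 (MAD2), which binds CDC20, had 951 and 992 against 288 and 286, with replicates nearly equal and a log2 fold change of -1.76 (SE 0.31). BUB3, the adaptor that brings BUB1 and BUB1B to KNL1, had 4733 and 5032 against 4101 and 4772. Its groups overlapped and its log2 fold change was -0.14 (SE 0.30). Exons of BUB1B overlap PAK6 and the readthrough gene BUB1B-PAK6 on the same strand.

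The corona and the RZZ complex had the smallest median of the roles after MS-275, -0.71, and held the widest gaps between the Control3 replicates. CENPE, the kinesin that moves chromosomes to the spindle equator, had 1096 and 6.06 in Control3 replicates 1 and 2 and 176 and 9.97 after MS-275. CENPF, a large corona protein, had 3295 and 116 and 462 and 40.9. In both, replicate 2 was far below replicate 1 whatever the treatment, and their log2 fold changes of -1.0 (SE 2.71) and -2.16 (SE 1.94) carry errors near or above the size of the change. ZWILCH stood at -1.22, KNTC1 (ROD) at -0.42 and the dynein adaptor SPDL1 at -0.25. ZW10, which also serves membrane traffic in interphase, had 1238 and 1196 against 1087 and 1187, hardly apart. In the SKA complex SKA3 had -3.48 (SE 0.48, adjusted p = 0.163) and SKA2 -0.42. SGO1, the shugoshin of mitotic centromeres, had 102 and 64.7 against 9.68 and 11 (-2.86, SE 0.51), with no overlap. SGO2 had 784 and 127 against 248 and 51.8 (-1.47, SE 1.16), with overlap between the groups.

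**Figure D2:**
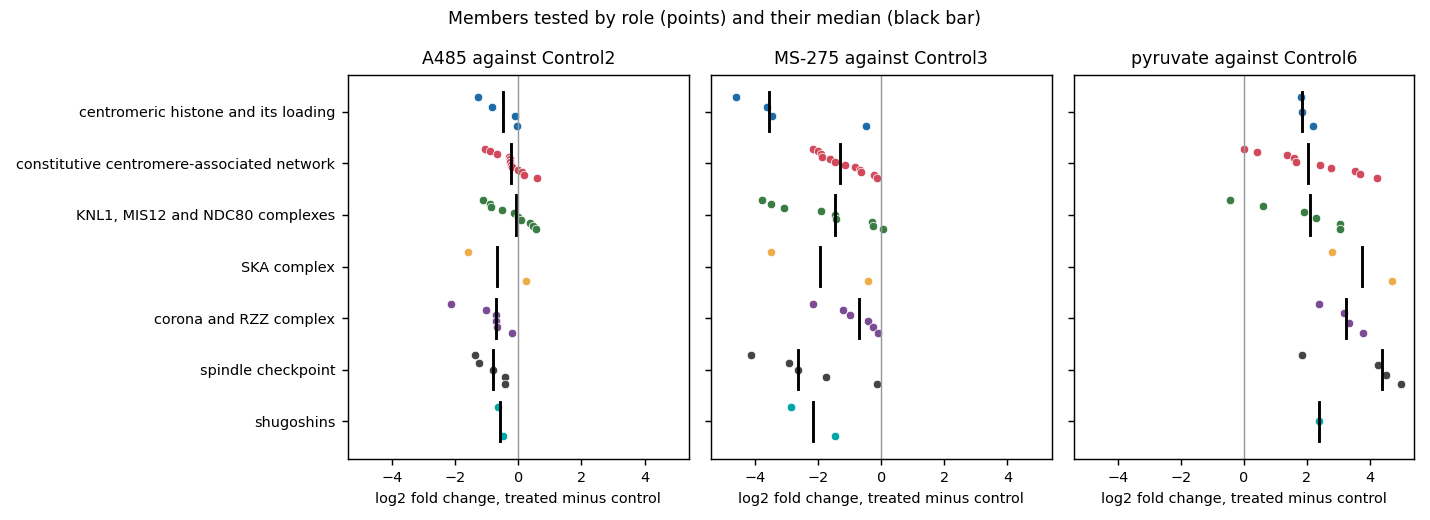
Each point is the log2 fold change of 1 member tested, on the x axis, in the row of its role, and the black bar is the median of the role. The MS-275 medians run from -3.54 for the centromeric histone and its loading to -0.71 for the corona and RZZ complex, the A485 medians from -0.80 to -0.08, and the pyruvate medians from 1.83 to 4.37.

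The gap between the MS-275 libraries and between the Control3 libraries followed transcript composition. Over the 40 members, replicate 2 minus replicate 1 had a Spearman rho of 0.59 with the GC content of the canonical transcript in Control3 and 0.62 in MS-275, and of -0.48 and -0.31 with its length. Over 15636 genes the values were 0.37 and 0.46 for GC content and -0.50 and -0.48 for length, so the members share this with the libraries as a whole. These correlations are descriptions across genes of the same 4 libraries. In the 16 members with GC content under 40%, a boundary set after values were seen, replicate 2 lay a median of -1.0 from replicate 1 in Control3 and -0.83 in MS-275, against -0.06 and 0.03 in the other 24. In the 5 of them longer than 4000 bases the medians were -2.61 and -2.24. The fold change itself had a rho of -0.10 with GC content over the members.

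**Figure D3:**
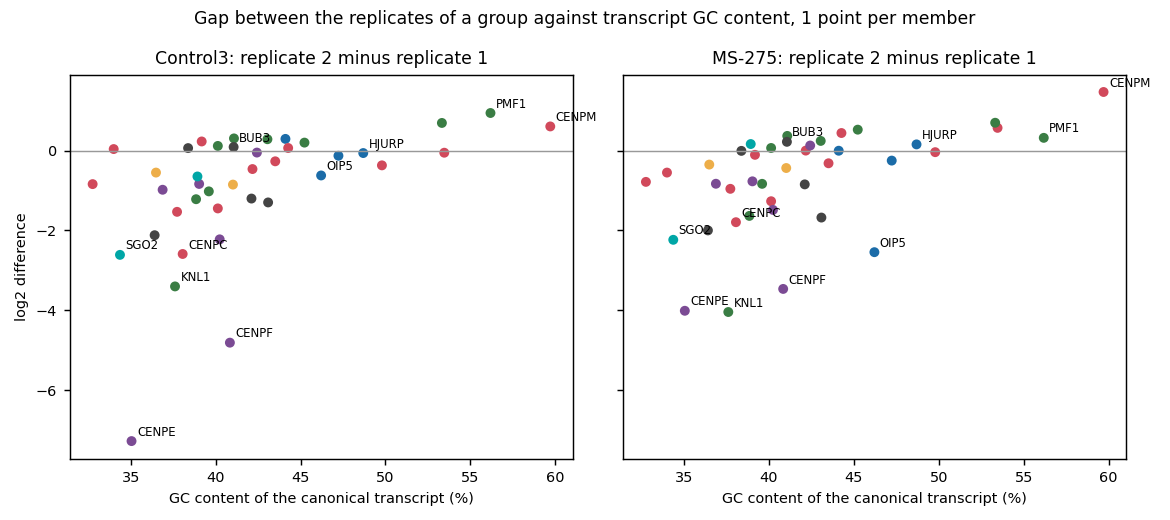
Each point is 1 member, with the GC content of its canonical transcript (%) on the x axis and the log2 difference of replicate 2 minus replicate 1 on the y axis, for Control3 (left) and MS-275 (right), coloured by role. CENPE lies at -7.28 in Control3 and KNL1 at -4.05 in MS-275, while GC-rich PMF1 and CENPM lie above 0 in both groups.

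Because replicate 2 stood low in these genes on both sides, the difference was also read within each number, with no test. Within number 1 the median difference of MS-275 minus Control3 was -1.68 and within number 2 it was -1.45, against -0.03 and 0.00 over all genes. Of the 40 members, 36 were lower within both numbers, against 40.4% of all genes, and 24 were lower by more than 1 within both, against 4.85%, a count chosen after values were seen. CENPA differed by -4.53 within number 1 and -4.65 within number 2. HJURP differed by -3.74 and -3.52, BUB1B by -3.92 and -4.30, and KNL1 by -3.47 and -4.11. KNL1, with an SE of 1.75 over the groups, was thus low within each number. CENPF differed by -2.83 and -1.49, and SGO2 by -1.66 and -1.28. CENPE had opposite signs, at -2.63 and 0.63, the second from counts of 6.06 and 9.97. So had CENPC, at -0.52 and 0.28. The other members not lower within both numbers were CENPQ, at 0.06 and -0.53, and NSL1, at 0.04 and 0.10. The number of members called lower was 14 without Control3 replicate 2, against 0.938% of all genes, 5 without Control3 replicate 1, against 0.617%, and 0 without either MS-275 library. The 5 were BUB1B, CENPA, HJURP, NDC80 and SKA3, all of which were also among the 14.

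**Figure D4:**
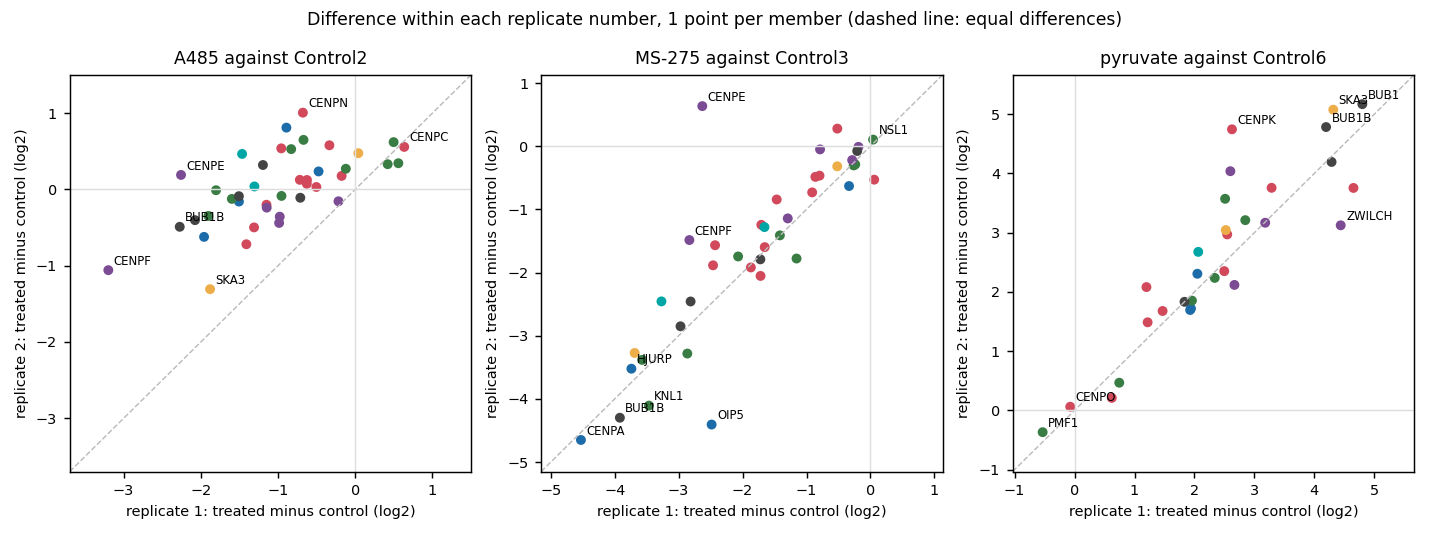
Each point is 1 member, coloured by role, with the log2 difference of treated minus control within replicate 1 on the x axis and within replicate 2 on the y axis. The dashed line marks equal differences. After MS-275 CENPE, OIP5 and CENPF lie furthest from the line. After pyruvate CENPK, CENPF and ZWILCH do, and all points but PMF1 and CENPO are positive within both numbers. After A485 most points lie above the line, with medians of -0.96 for number 1 and 0.04 for number 2.

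A485 was compared with Control2 to ask how the members respond to inhibition of p300. A single member was called by limma, CENPF, which fell, so 1 of 41 was called lower against 7.06% of all 16084 genes. DESeq2 called 5 lower, BUB1, BUB1B, CENPF, HJURP and SKA3, with 1543 of all genes lower. With edgeR it was CENPF alone, with 1122 of all genes lower. By limma 532 of all genes were called higher and 1135 lower, and 1669 and 915 with libraries scaled to equal totals. The median log2 fold change of the members was -0.44 against 0.01 over all genes, 32 negative and 9 positive, and -0.04 against 0.40 with equal totals. Mitochondrial genes took 4.09% and 5.34% of the reads in Control2 and 5.46% and 6.91% after A485, and the part of this share was not tested. The members' median rested on 1 control library. Control2 replicate 2 lay below Control2 replicate 1 in 41 of 41 members, by a median of -1.40, against 47.3% of all genes. Replicate 1 was the highest of the 4 libraries in 36 of 41, against 23.6%, a count chosen after values were seen. Without Control2 replicate 1 the median was 0.29, and 27 members were positive. Without Control2 replicate 2 the median was -1.13 and 3 members were called lower (BUB1B, CENPF and KNL1), against 2.57% of all genes, and without either A485 library none was called. Control2 replicate 2 was below both A485 libraries in 20 members, against 41.0% of all genes.

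CENPF had 4342 and 1643 in the Control2 libraries and 472 and 788 after A485. Both treated libraries were low, and the log2 fold change was -2.13 (SE 0.49, adjusted p = 0.0421 by limma), -3.20 within number 1 and -1.06 within number 2. The adjusted p ran from 3.36e-05 (DESeq2) to 0.264 (without A485 replicate 1) over the alternatives, and the call was lost without Control2 replicate 1 (0.119), without either A485 library and with a pseudocount of 0.1 (0.0501). The groups also failed to overlap, with the A485 libraries lower, in HJURP, KNL1, SKA3, TTK and ZWILCH, making 6 of 41 members against 30.7% of all genes. SKA3, the next most negative and not called by limma, had 1101 and 359 against 298 and 144, a log2 fold change of -1.59 (SE 0.60, adjusted p = 0.139). HJURP had 2027 and 556 against 521 and 361 and stood at -1.29 (SE 0.59, adjusted p = 0.205). In each of these the first control was several times the second, 2.64-fold in CENPF, 3.07-fold in SKA3 and 3.65-fold in HJURP.

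The checkpoint and centromere genes showed the same gap between the controls. BUB1B had 1923 and 383 against 397 and 273 (-1.38, SE 0.72), and BUB1 had 2611 and 534 against 619 and 403 (-1.24, SE 0.71). CENPA had 660.3 and 138 against 232 and 124 (-0.83, SE 0.75). In all 3 only Control2 replicate 1 stood apart, and the A485 libraries lay near Control2 replicate 2. MAD2L1 had 2674 and 712 against 1167 and 889.8, and TTK had 759 and 318 against 266 and 299. BUB3 had 8596 and 4777 against 5251 and 4429 and the smallest such gap in the checkpoint, 1.80-fold between the controls. NDC80 had 943 and 247 against 530.1 and 357, NUF2 752 and 174 against 248 and 159, and KNL1 1585 and 457 against 453 and 453. NDC80 after A485 thus lay between the controls. CENPE had 1530.3 and 465 against 319 and 531, ZW10 1595 and 1139.5 against 1372 and 1023, SGO1 246 and 64.9 against 88.5 and 90.0 and SGO2 999.5 and 404 against 404 and 415.

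Both A485 libraries lay above both controls in 5 members, CENPC, MIS12, PMF1, NSL1 and SKA2, against 30.4% of all genes, and none of the 5 was called. CENPC had 409.9 and 348 in the controls and 637 and 512 after A485 (0.60, SE 0.25, adjusted p = 0.174). MIS12 had 644 and 515 and 910.2 and 793 (0.56, SE 0.23, adjusted p = 0.161). PMF1 had 402 and 322 and 593 and 409 (0.45, SE 0.29). These 3 had the largest positive log2 fold changes, and 3 of the 5 belong to the MIS12 complex. NSL1 had 1336 and 1247 and 1788 and 1569 (0.38), and SKA2 2569 and 2050.1 and 2643 and 2851 (0.26). Control2 replicate 1 exceeded replicate 2 by 1.07-fold in NSL1 and 1.25-fold in SKA2, the narrow end of the range, against 9.33-fold in SPC25 at the wide end. The other members with positive values were CENPN at 0.16, CENPP at 0.12, DSN1 at 0.08 and CENPQ at 0.00112. CENPN had 1746 and 498 against 1091 and 1002, CENPP 179.8 and 79.6 against 142 and 119, DSN1 909 and 388 against 835 and 469 and CENPQ 182 and 143 against 161 and 162. In these 4 the A485 libraries lay between the controls. The remaining members, given by log2 fold change, ran from -1.12 in SPC25, which held under 10 counts in 3 libraries, through CENPW at -1.06 and CENPM at -0.90, to ZWINT at -0.01.

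Whether the effect of MS-275 differed from that of A485 was tested as a contrast over the 8 libraries of both comparisons, which have separate controls. No member was called by limma, against 3.81% of 15130 genes called in either direction, 484 higher and 92 lower (330 and 224 with equal totals). The median difference was -0.87 over the members and -0.02 over all genes. Of the 40 members, 35 were more negative after MS-275, against 50.6% of all genes, and 7 of them had an unadjusted p under 0.05, against 6.83%. CENPA had the largest difference, -3.76 (SE 1.01, adjusted p = 0.0998), followed by OIP5 at -3.41 (SE 1.37, adjusted p = 0.257) and NDC80 at -3.33 (SE 0.97, adjusted p = 0.125). HJURP differed by -2.34 (SE 0.80, adjusted p = 0.187) and BUB1B by -2.73 (SE 1.23, adjusted p = 0.311). CENPF and CENPE hardly differed, at -0.03 and 0.04, but with SEs of 2.26 and 3.13. Without Control2 replicate 1 the median difference was -1.62 and 3 members were called lower, CENPA, CENPN and HJURP, against 0.238% of all genes. Without Control2 replicate 2 it was -0.28 with none called. The 2 inhibitors differ in target, and the labels give no dose, so the values stand side by side as measured.

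Pyruvate was compared with Control6 to ask how the members respond when pyruvate is added. The list held only genes with at least 20 reads in 2 of the 4 libraries. A member under 20 reads in a control was thus listed only if a pyruvate library reached 20, which favours higher values with pyruvate. The counts here describe the 30 listed members. Of them, 26 were called higher and none lower, against 31.0% of all 12013 genes called higher. Over all genes 3726 were called higher and 2777 lower, 4402 and 1741 with equal totals, and 3143 and 3228 with quantile normalization. Both pyruvate libraries lay above both controls in 28, against 45.2%. The median log2 fold change was 2.41 against -0.01 over all genes. Mitochondrial genes took 6.69% and 6.68% of the reads in Control6 and 4.68% and 4.72% with pyruvate, and the part of this share in the result was not tested. Of the 22 members with at least 20 reads in both controls, which were listed whatever pyruvate did, 18 were called higher, against 29.6% of such genes, a count added after values were seen. The other 8 listed members were CENPI, CENPK, CENPP, CENPU, SKA3, CENPF, ZWILCH and SPDL1. OIP5, CENPC, CENPQ, KNL1, NDC80, NUF2, SPC25, SKA1, CENPE, KNTC1, TTK and SGO1 were not listed and were not analysed here.

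All 4 checkpoint genes listed rose, with the highest median of any role, 4.37, and 2.76 with a trend on GC content and transcript length removed, also the highest. BUB1 had 31.4 and 21.7 in the Control6 libraries and 903 and 817 with pyruvate, 32.4-fold higher by the means, with a log2 fold change of 4.99 (SE 0.24, adjusted p = 6.20e-09 by limma). BUB1B had 44.2 and 28.2 against 828 and 804 (4.49, SE 0.24, adjusted p = 1.43e-08). MAD2L1 had 30.4 and 28.2 against 613 and 534 (4.24, SE 0.23, adjusted p = 1.68e-08). In all 3 the replicates lay close together and the groups far apart. BUB3 had 997 and 1019 against 3558 and 3632 (1.83, SE 0.08). SKA3, of the SKA complex, had 25.5 and 16.3 against 528 and 582 (4.70, SE 0.29, adjusted p = 3.79e-08), and SKA2 stood at 2.78. SKA3 was listed through the pyruvate libraries.

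CENPA and its loading genes had a role median of 1.83, and of 1.78 with that trend removed. CENPA had 78.6 and 84.6 against 302 and 276 (1.81, SE 0.21, adjusted p = 1.02e-05). HJURP had 219 and 167 against 909 and 830.4 (2.18, SE 0.16, adjusted p = 1.80e-07). MIS18A stood at 1.83, and all 3 were called. In the centromere-associated network 6 members had at least 20 reads in both controls, and 4 of them were called, CENPH at 2.76, CENPW at 2.42, CENPN at 1.57 and CENPL at 1.35. CENPI at 4.20, CENPK at 3.69, CENPU at 3.52 and CENPP at 1.64 had under 20 reads in a control and were listed through the pyruvate libraries. CENPM, with 122 and 175 against 188 and 202 (0.42, SE 0.23), and CENPO were not called. CENPO had 707 and 664 against 672 and 693, and its groups overlapped, with a log2 fold change of -0.01 (SE 0.11).

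Of the outer complexes, MIS12 had 48.1 and 32.6 against 279 and 398 (3.04, SE 0.29, adjusted p = 1.68e-06). NSL1 stood at 3.03, DSN1 at 2.29 and ZWINT at 1.91, all called, and SPC24 at 0.61, not called. PMF1 went the other way, with 234 and 238 in the controls and 161 and 184 with pyruvate (-0.45, SE 0.19, adjusted p = 0.0462), a change under the minimum of 1. It was the 1 member below both controls in both pyruvate libraries. In the corona and RZZ complex ZW10 was the 1 listed member with at least 20 reads in both controls, and it was called, while CENPF, ZWILCH and SPDL1 were listed through pyruvate. CENPF had 33.4 and 11.9 against 207 and 212 (3.32, SE 0.44), and ZW10 had 79.6 and 82.5 against 729 and 749 (3.17, SE 0.17). ZW10 was 9.13-fold higher by the means. ZWILCH stood at 3.78 and SPDL1 at 2.39. The shugoshin SGO2 had 43.2 and 26 against 184 and 172 (2.37, SE 0.33).

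The fold change with pyruvate moved with transcript composition. Its Spearman rho with GC content was -0.71 over the 30 listed members and -0.72 over 11888 genes, and with length 0.29 and 0.33, so AT-rich genes tended to be higher with pyruvate across the libraries. Over those genes, replicate 2 minus replicate 1 had a rho with GC content of only -0.07 in Control6 and 0.03 with pyruvate. With length, that rho was -0.255 in Control6 and 0.07 with pyruvate, so the Control6 replicates also differed with length. Composition and treatment cannot be told apart in these 4 libraries. With a trend on GC content and length removed from each library, the members' median log2 fold change was 1.43 and 23 of 30 were called higher, against 14.7% of all genes. That median and count include the members listed through the pyruvate libraries. BUB1 then stood at 3.50, SKA3 at 3.21, BUB1B at 3.19 and MAD2L1 at 2.33. ZW10 stood at 1.87, MIS12 at 1.53, NSL1 at 1.11 and CENPF at 1.35. HJURP and CENPA, of higher GC content, stayed close to their values, at 2.27 and 1.78. BUB3 went from 1.83 to -0.09 and lost its call. CENPL, CENPN, SGO2 and SPDL1 also lost theirs, at 0.45, 0.32, 0.80 and 0.83. GC-rich CENPM and SPC24 gained one, at 1.55 and 1.35, and PMF1 turned positive at 0.54, as did CENPO at 0.50.

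**Figure D5:**
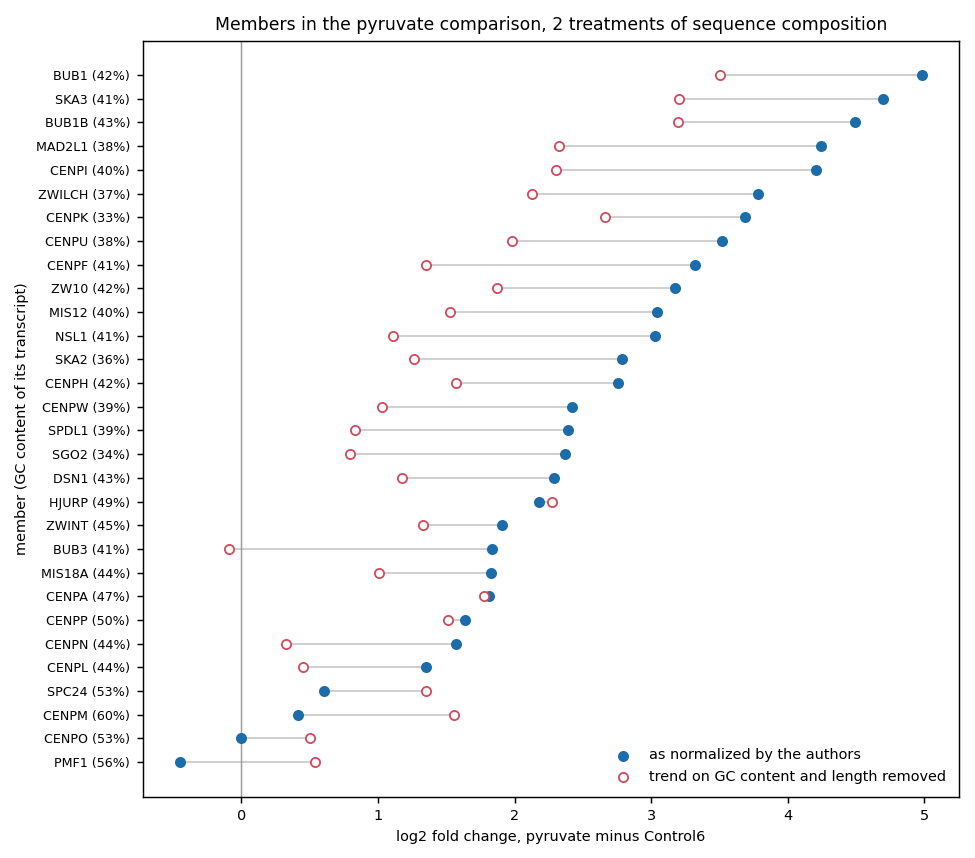
Each row is 1 of the 30 listed members with the GC content of its transcript, and the x axis is the log2 fold change of pyruvate minus Control6. Blue points are the values as the authors normalized them and open red points those with the trend on GC content and length removed. BUB1, SKA3 and BUB1B stay above 3 in both, and BUB3 moves to -0.09.

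Other genes of the pathway were read as lists with no test of the list. Of 20 other centromere and kinetochore genes, such as the kinase AURKB and the checkpoint target CDC20, 19 were tested after MS-275. None was called, the median was -0.94, and 9 were lower by more than 1 within both numbers, against 4.85% of all genes. After A485 the median of 19 was -1.03, none called, and Control2 replicate 1 was the highest library in 16, against 23.6% of all genes. With pyruvate 9 of 15 were called higher, against 31.0% of all genes, and 4 lower, with 2777 of 12013 genes called lower. ITGB3BP (CENPR) at 2.54 and SPAG5 at 2.15 were the largest rises. ITGB3BP had under 20 reads in a control and was listed through the pyruvate libraries. CENPT, with 2273 and 2198 against 896 and 741 (-1.46), and CENPX (-1.42) were the largest falls, both subunits of the histone-fold complex that also holds CENPW. With the composition trend removed CENPT and CENPX stood at -0.50 and -0.27, ITGB3BP at 1.21 and SPAG5 at 2.37. Of the 15, 10 were then called higher, against 14.7% of all genes. Of 14 subunits of the anaphase promoting complex, the ligase that the checkpoint restrains, none was called after MS-275 (median -0.24) or A485 (median 0.18). With pyruvate 7 of the 14 were called higher, against 31.0% of all genes, led by CDC27 at 3.22 and ANAPC4 at 2.83. ANAPC10, among these 7, had under 20 reads in a control and was likewise listed through the pyruvate libraries. ANAPC11 was called lower at -1.34. With the trend removed 3 were called higher, against 14.7% of all genes, and CDC27 and ANAPC4 stood at 1.31 and 1.30.

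Levels were compared between genes only as reads per kilobase of canonical transcript, scaled to the same library total, within a comparison. In Control3 SKA2 was highest by the mean, at 18.8 and 12.9 in replicates 1 and 2, with BUB3 beside it at 14.7 and 15.7, so the order of these 2 is within their spread. CENPP was lowest of the listed members, at 0.351 and 0.273. After MS-275 SKA2 and BUB3 stayed high on this scale, at 12.1 and 9.19 and at 11.8 and 13.2, while CENPA went from 4.22 and 3.89 to 0.154 and 0.123. In Control6 PMF1 was highest and CENPF lowest by the mean among the members listed in that comparison. BUB3, at 4.37 and 4.50 there, reached 19.4 and 19.8 with pyruvate. The trend on GC content and length is not removed from these levels, and with it removed the log2 fold change of BUB3 was -0.09. The transcripts behind these levels ranged from 809 bases in CENPW to 13115 in NSL1 and from 32.8% GC in CENPK to 59.7% in CENPM. Exons of 16 of the 42 members overlap another gene, 4 on the same strand and 13 on the opposite strand, and since neither the strand setting nor the annotation used in counting is stated, reads may be shared in these.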

How the data were processed

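Of the 20 samples, the 12 bulk RNA-seq libraries of IMR90 cells were used, and the 8 muscle samples were not used. The authors trimmed reads with Trim Galore 0.6.10, aligned them to hg38 with HISAT2 2.2.1 and SAMtools 1.7, counted them per gene with featureCounts 2.0.6 and divided them by DESeq2 1.34.0 size factors (versions from the submitters' processing notes), so the deposited signal is normalized read counts, 1 table per library, each comparison normalized and filtered on its own. The strand setting and annotation are not given in the sources used here, and the study names 2 sequencing services without saying which made each library. In every listed gene the second-highest library of a comparison held at least 10 reads (A485, MS-275) or 20 reads (pyruvate).

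Reads per library were recovered from the steps of the values, which came out whole to within 0.01. Depth ran from 24179065 to 46971227 reads in listed genes. Values were tested as log2(value + 1) with limma 3.58.1 (R 4.3.3, trended variance, two-sided, no covariate) over genes whose mean over the 4 libraries of a comparison was at least 10, with Benjamini-Hochberg adjustment over all genes tested. The effect of MS-275 minus that of A485 was a contrast over 8 libraries, which were normalized separately. The alternatives were pseudocounts of 0.1 and 10, no filter and a mean of at least 50, equal library totals, quantile normalization, a replicate block, a trend on GC content and length removed, a fold change limit of 0.58, each library left out, and for A485 edgeR 4.0.16 and DESeq2 1.42.0 on recovered reads. The trend used splines of 4 degrees of freedom each for GC content and log2 length of the canonical transcript (GENCODE 44, hg38). The tests were tested on simulated data. Promoters were RefSeq sequences of GRCh38.p14, the first entry per symbol, found for 34 of 42 members. Tables used python 3.11.15, numpy 2.4.6 and pandas 2.3.3, and figures matplotlib 3.10.9.

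The members and lists were chosen with earlier results of these data known. All members were counted. Values per library were given for the 3 largest falls and rises of each comparison, for members against the direction of the median and for a set list of CENPA, HJURP, CENPC, the outer kinetochore, checkpoint and shugoshin genes, and log2 fold changes for the rest. From the other lists, up to 2 called genes each were named at the high and low ends, and AURKB and CDC20 as examples without values.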

Additional observations from a re-analysis of the deposited data

How the results depend on the processing

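With 2 libraries a group, 1 library can decide a call, and genes of few reads are limited by depth. Leaving out 1 library, the members' A485 median ranged from -1.13 to 0.29, turning positive without Control2 replicate 1. The MS-275 median ranged from -1.72 to -1.22, the median of the difference between them from -1.62 to -0.28, and the pyruvate median from 2.38 to 2.55. After A485 no member was called lower with a pseudocount of 0.1 and 5 with DESeq2, which was run, like edgeR, on whole reads recovered from 100% of the values. Over all genes edgeR called 542 higher and 1122 lower and DESeq2 782 and 1543, against 532 and 1135 with limma, and the members' median was -0.71 and -0.72. The pyruvate median was 2.22 with a pseudocount of 10, 2.71 with equal totals, 2.00 with quantile normalization (1 member called lower, PMF1), 1.43 with the GC and length trend removed, and 2.23 over genes with at least 20 reads in both controls, an alternative chosen after seeing the data. Scaling moved the median of all genes by over 0.1, to 0.40, -0.15 and 0.30 with equal totals for A485, MS-275 and pyruvate, to 0.12 and -0.17 with quantile normalization for A485 and pyruvate, and to 0.12 with the trend removed for A485.

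No label says that replicate numbers pair the libraries, and 2 pairs cannot show it. Deviations of same-numbered libraries from their group means correlated at 0.32 (A485), 0.73 (MS-275) and 0.002 (pyruvate) over all genes. With a replicate block, 6 members were called lower after A485 (10% of all genes), 25 after MS-275 (6.0%) and 14 for their difference (8.04%), and with the block and the GC and length trend removed 6, 25 and, for pyruvate, a median of 1.43. With that block and trend CENPQ stood at -0.39 after A485, NSL1 at -0.037 after MS-275, and CENPO at 0.50, PMF1 at 0.54 and BUB3 at -0.090 with pyruvate, the same as with the trend alone.

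Other sign changes concerned genes named in the report. After A485 CENPN was at -0.089 with edgeR and -0.10 with DESeq2, CENPQ at -0.0089 with DESeq2, and with equal totals NDC80 stood at 0.24 and ZW10 at 0.21. With equal totals NSL1 was at -0.069 after MS-275 and CENPO at 0.30 with pyruvate, and CENPM was at -0.26 with quantile normalization. Leaving out 1 library, A485 values ranged from -1.96 to 0.29 in CENPA, -0.74 to 1.07 in CENPN, -0.46 to 0.71 in CENPP, -0.17 to 0.17 in CENPQ, -0.54 to 0.69 in DSN1, -1.11 to 0.81 in NDC80, -1.91 to 0.19 in NUF2, -0.43 to 0.056 in ZW10, -0.83 to 0.014 in BUB3, -1.39 to 0.52 in MAD2L1, -1.45 to 0.45 in SGO1 and -1.29 to 0.019 in SGO2, each positive without Control2 replicate 1. MS-275 values ranged from -1.42 to 1.18 in CENPC, -0.11 to 0.26 in NSL1, -4.64 to 2.64 in CENPE and -4.57 to 0.25 in CENPF, and pyruvate values from -0.051 to 0.040 in CENPO. Apart from these, 333 values of 25 genes named for A485, 183 of 18 for MS-275 and 167 of 14 for pyruvate kept their direction and side of the threshold. Another 4, 0 and 2 lost the call, and 14, 40 and 3 gained one. Beyond the construction of each alternative, the cause was not tested. Neither edgeR nor DESeq2 was run on the other comparisons.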
